A study of Mus musculus with 6 samples.

Results

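The noncoding snoRNA host genes Gas5, Snhg1, Snhg3, Snhg5, Snhg6, Snhg8 and Snhg12 were examined in mouse colorectal tumor organoids (MTOs) exposed to Folfiri. These 7 genes were chosen by name, with earlier results of these data known, and all 7 were among the 24190 genes of the count table. All 6 cultures were of the parental MTO54 line, labelled AKP and derived from a tumor of engineered mice, so controls and treated cultures shared the same driver alterations. The 3 control cultures received complete stem cell medium. The 3 Folfiri cultures received SN38 at 100 nM and 5FU, whose concentration the labels give as 50 μg/μl, for 2 days beginning 2 days after seeding, as the labels and the study's methods state, although its figure captions give a longer treatment. 5FU is a pyrimidine analog and SN38 is the active metabolite of irinotecan, an inhibitor of topoisomerase I. The comparison shows how the steady-state RNA of these hosts differed between treated and control MTOs of a single line.

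Small nucleolar RNAs (snoRNAs) guide the chemical modification and the processing of ribosomal RNA, and in mammals most are cut from the introns of host genes. In the noncoding hosts the spliced exons encode no known protein. Many of these spliced RNAs begin with a 5′ terminal oligopyrimidine (TOP) tract, the start element of ribosomal protein mRNAs, and are engaged by ribosomes on short reading frames. A stop codon far upstream of the last exon junction exposes such RNAs to nonsense-mediated decay (NMD), which acts on RNAs that are being translated. Gas5, whose name stands for growth arrest-specific, is the classic case, since its spliced RNA accumulates when growth or translation stops.

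The start regions of 5 hosts are shown because they held TATA before the start, and so that the first bases of these RNAs can be read against the TOP tract. RefSeq sequences of GRCm38.p6 were found for 6 of the 7 hosts, and Snhg6 had no entry. Each line gives 50 bases before the annotated start and 30 bases from it, 5′ to 3′ on the gene's strand. Capitals mark TATA beginning 45 to 21 bases before the start, and the unbroken run of C or T that opens the transcript.
Gas5 (chr1:161035116-161035195, + strand): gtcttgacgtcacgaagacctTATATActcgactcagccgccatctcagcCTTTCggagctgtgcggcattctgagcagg
Snhg1 (chr19:8723437-8723516, + strand): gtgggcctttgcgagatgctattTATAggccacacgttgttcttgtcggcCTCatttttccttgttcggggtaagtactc
Snhg5 (chr9:88522868-88522947, - strand): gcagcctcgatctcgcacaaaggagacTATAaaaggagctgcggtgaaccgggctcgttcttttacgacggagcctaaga
Snhg8 (chr3:123508307-123508386, - strand): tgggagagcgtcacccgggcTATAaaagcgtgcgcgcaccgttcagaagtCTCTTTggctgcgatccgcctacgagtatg
Snhg12 (chr4:132308628-132308707, + strand): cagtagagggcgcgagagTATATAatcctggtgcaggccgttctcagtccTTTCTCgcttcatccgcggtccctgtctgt
The table held 7 starts for the 6 hosts, and TATA stood in this window in 5 of the 7, beside 6.52% of all 32851 start regions. TATA reads the same on both strands. A start at C followed by an unbroken run of at least 5 C or T in all was present in Gas5 and Snhg8, against 2.51% of the start regions, and was read on the gene's strand alone. The run opened with T in Snhg12 and was 3 bases long in Snhg1. In Snhg5 the annotated start was a G, with a pyrimidine tract a few bases downstream. A second Gas5 start at 161034601 and the Snhg3 start held neither feature. These matches are descriptions of letters at annotated starts.

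In the GENCODE models the hosts spanned from 853 bases (Snhg8) to 5673 bases (Snhg3) and held 27 annotated snoRNA loci. Gas5 held 9 of them, Snhg1 held 8, Snhg12 held 4, Snhg3 and Snhg5 held 2 each, and Snhg6 and Snhg8 held 1 each. The best supported basic transcript of Gas5, Gas5-224, had 12 exons in 502 bases, and its longest frame from an ATG was 39 codons. Among the 7 hosts the longest such frame was from 35 codons in Snhg8 to 66 codons in Snhg5. This longest frame ended upstream of the last exon junction in 5 of the 7 transcripts, from 72 bases in Snhg1 to 213 bases in Snhg12, and downstream of it in Snhg3 and Snhg5. The frame opened by the first ATG ended upstream of that junction in all 7, but was as short as 1 codon in Snhg8 and 3 codons in Snhg5.

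The libraries held from 22103591 to 30098210 counts on genes. Levels are CPM, counts scaled to a common library size with TMM factors, and changes are log2 fold changes of Folfiri over control from edgeR's quasi-likelihood test, adjusted over the 14692 genes tested. In that test 79.1% of genes differed at an adjusted p under 0.05, with 40.3% higher and 38.8% lower after Folfiri. Of the calls, 51.0% were higher, which became 63.3% when libraries were scaled by total counts only, with the median of all genes moved up by 0.28 on the log2 scale. Control replicate 1 stood apart from the other controls, with a chi-square per degree of freedom of 23.7 and 22.4 against them and 3.84 between the other two. Folfiri replicate 3 likewise stood apart from the other treated cultures, at 12.3 and 11.9 against 3.55 between those. Epithelial markers summed to between 3634 and 4883 CPM in each library, with 3 of the 7 lower after Folfiri (Cdx2, Epcam and Krt8) and 1 higher (Cdh1). All 6 immune markers together reached at most 26.0 CPM, nearly all of it Cd68, and 1 of the 2 tested was higher (Ptprc, 0.396 to 1.06 CPM). The 5 fibroblast markers together reached 1.44 CPM in controls and 2.41 CPM after Folfiri, with Dcn (0.0240 to 0.694 CPM) and Pdgfra (0.397 to 1.15 CPM) higher and Col1a1 (0.842 to 0.301 CPM) lower. Dcn had 2, 0 and 0 counts in controls and passed the expression filter only through the treated cultures, so its call adds no support. Ptprc, Pdgfra and Col1a1 also had few counts. The part of these markers in the results was not tested. Col3a1 was at 0 in controls and Tyrobp at 0 after Folfiri. The study calls the replicates of each condition biological, and the labels do not say how they were started, so p-values measure the spread between these cultures of 1 line.

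Of the 7 hosts, 6 passed the expression filter. Gas5, Snhg1, Snhg5, Snhg8 and Snhg12 rose after Folfiri and Snhg6 fell, so 5 of 6 tested were higher beside 40.3% of all tested genes. In none of the 6 did the groups overlap, as was the case for 81.4% of tested genes. Because the RNA is from whole cultures, fewer cells of a type and less RNA per cell cannot be told apart.

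Snhg1, host of Snord22 and several C/D snoRNAs, was among the most changed (ENSMUSG00000108414, chromosome 19 of GRCm38 from 8723475 to 8726443, + strand). Its level was 49.5, 65.1 and 63.9 CPM in control replicates 1, 2 and 3, and 169, 182 and 212 CPM in Folfiri replicates 1, 2 and 3. The lowest treated culture was far above the highest control. The means were 59.5 ± 8.69 and 188 ± 22 CPM (SD, n = 3 each). The log2 difference was 1.66 ± 0.12 (SE; adjusted p = 4.12e-07, edgeR), or 3.16-fold.

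Snhg5, which carries Snord50a and Snord50b, lies on chromosome 9 from 88521050 to 88522929 on the - strand (ENSMUSG00000097195). It was at 26.3, 32.1 and 32.1 CPM in the controls and at 84.9, 88.6 and 98.8 CPM after Folfiri. The treated cultures again stood well clear of the controls. The log2 difference was 1.59 ± 0.10 (SE; adjusted p = 1.66e-07, edgeR), or 3.02-fold, from 30.1 ± 3.34 to 90.8 ± 7.17 CPM (SD, n = 3 each). This lay within 1 SE of the value for Snhg1, and with the genomic span correction Snhg5 was the higher of the pair, at 1.76 against 1.64.

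Snhg12, host of Snora16a, Snora44, Snora61 and Snord99, lies on chromosome 4 from 132308623 to 132311024 on the + strand (ENSMUSG00000086290). It was the least abundant of the tested hosts, at 7.71, 9.40 and 10.8 CPM in controls and 21.3, 22.6 and 25.0 CPM after Folfiri. Each treated culture was above every control. The log2 difference was 1.32 ± 0.13 (SE; adjusted p = 3.90e-06, edgeR), from 9.28 ± 1.52 to 23.0 ± 1.88 CPM (SD, n = 3 each).

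Gas5, host of Snord47, Snord78 and Snord80, lies on chromosome 1 from 161034422 to 161038539 on the + strand (ENSMUSG00000053332). It was the most abundant host, at 142, 183 and 182 CPM in controls and 242, 252 and 295 CPM after Folfiri. The groups did not overlap, although the relative rise was smaller than that of Snhg1, Snhg5 or Snhg12. The means were 169 ± 23.1 and 263 ± 27.8 CPM (SD, n = 3 each). On the log2 scale the rise was 0.64 ± 0.11 (SE; adjusted p = 0.000294, edgeR), or 1.56-fold.

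Snhg8, host of the H/ACA snoRNA Snora24, lies on chromosome 3 from 123507552 to 123508404 on the - strand (ENSMUSG00000104960). Its level was 20.8, 26.0 and 24.0 CPM in controls and 29.7, 30.9 and 37.3 CPM after Folfiri. The gap between the groups was narrow. The log2 difference was 0.47 ± 0.11 (SE; adjusted p = 0.00292, edgeR), from 23.6 ± 2.61 to 32.6 ± 4.07 CPM (SD, n = 3 each). It was 0.75 with total counts only and 0.92 with a correction for genomic span, and its call held under both.

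Snhg6, host of Snord87, went the other way (ENSMUSG00000098234, chromosome 1 from 9941959 to 9944118, - strand). It was at 30.6, 41.7 and 42.4 CPM in controls and at 26.8, 25.4 and 27.8 CPM after Folfiri. Every treated culture was below every control, with control replicate 1 nearest to them. The means were 38.2 ± 6.65 and 26.7 ± 1.20 CPM (SD, n = 3 each). The log2 difference was -0.52 ± 0.12 (SE; adjusted p = 0.00231, edgeR). With total counts only the value was -0.23 and its call was lost (adjusted p = 0.0681, edgeR). Measured from the median of the tested genes, Snhg6 was at -0.54 with TMM scaling and -0.53 with total counts only.

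Snhg3, host of Snora73a and Snora73b, could not be measured from this table (ENSMUSG00000085241, chromosome 4 from 132348014 to 132353686, - strand). It had 1, 1 and 4 counts in controls and 3, 2 and 1 counts after Folfiri, both groups near the floor of the counting. Of its 986 exonic bases, 135 (13.7%) lay in no other gene's exons. The opposite-strand gene Gm17300, which has no row in the table, covered 705 of them. How reads over shared exons were counted is not given in the sources used here, and the library kit named in the labels does not mark strand.

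**Figure D1:**
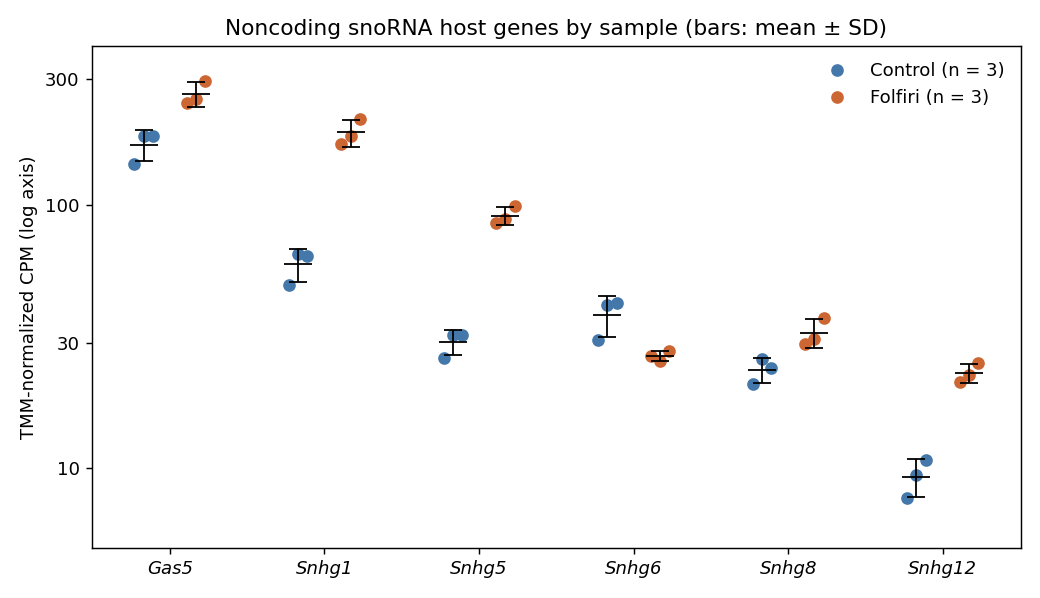
TMM-normalized CPM on a log axis for the 6 tested hosts, with 1 point per culture (blue, control; orange, Folfiri) and black bars for the mean ± SD of 3 cultures. The orange points lie above the blue ones for 5 genes and below them for Snhg6, and the points of Snhg1 go from 59.5 to 188 CPM on average.

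Within each group the 6 hosts ordered the cultures in much the same way. Control replicate 1 was the lowest control and Folfiri replicate 3 the highest treated culture for each of the 6 genes. This was not particular to the hosts, as most ribosomal protein genes showed it too. Rpl3, which fell, was at 1813, 2200 and 2186 CPM in controls and 756, 764 and 857 CPM after Folfiri. Without control replicate 1, the log2 fold change was 1.54 for Snhg1, 1.501 for Snhg5, 1.20 for Snhg12, 0.53 for Gas5, 0.38 for Snhg8 and -0.66 for Snhg6. All 6 calls held in each fit that left out 1 culture.

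**Figure D2:**
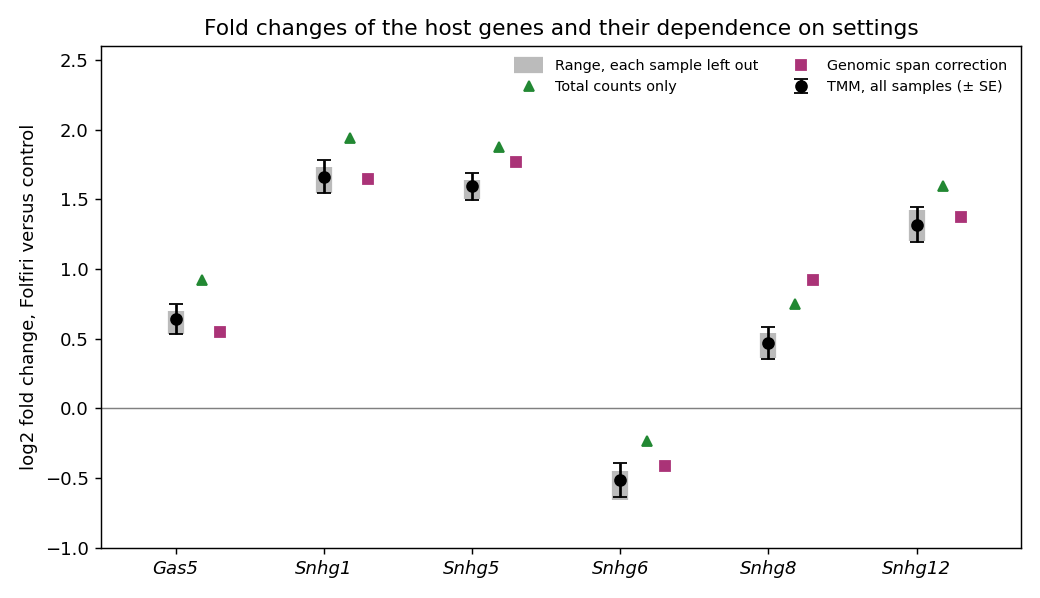
Log2 fold change of Folfiri over control for each tested host. Black points are the values with TMM scaling ± SE, grey bars the range when each culture is left out, triangles the values with total counts only and squares those corrected for genomic span. Snhg8 moves most with the span correction, from 0.47 to 0.92, and Snhg6 is nearest to 0 with total counts only, at -0.23.

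Together the 7 hosts took 0.0268%, 0.0315% and 0.0312% of the gene counts in the controls and 0.0636%, 0.0662% and 0.0762% after Folfiri. Their shares of one another's reads do not depend on the scaling between libraries. Gas5 made up 51.3%, 51.2% and 51.2% of the hosts' reads in controls and 42.2%, 41.9% and 42.4% after Folfiri. The share of Snhg1 was 17.8%, 18.2% and 17.98% in controls and 29.5%, 30.2% and 30.5% after Folfiri. Snhg6 went from 11.03%, 11.7% and 11.9% to 4.66%, 4.22% and 3.998%. The composition was thus nearly the same in cultures of 1 group and differed between the groups. On average Snhg5 went from 9.17% to 14.6%, Snhg12 from 2.81% to 3.69% and Snhg8 from 7.18% to 5.22%. Shares of reads weigh longer hosts more. Per kilobase of exon, the mean share of Gas5 changed by -3.25 percentage points in place of -9.07, that of Snhg6 by -13.5 in place of -7.26, that of Snhg8 by -3.97 in place of -1.96 and that of Snhg5 by 8.59 in place of 5.39.

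**Figure D3:**
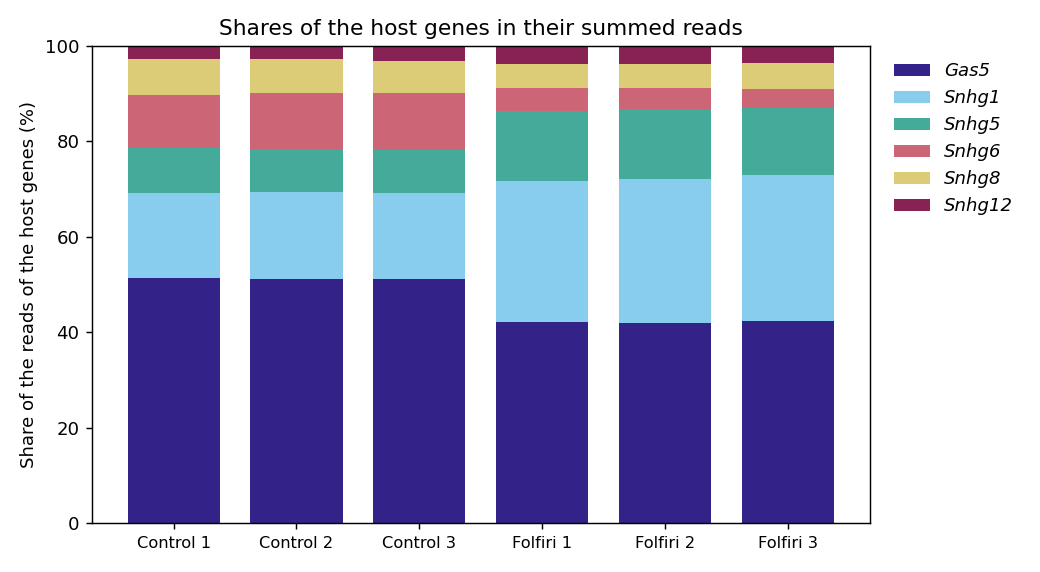
Share of each host in the summed reads of the hosts, in percent, with 1 stacked bar per culture. Snhg3, at no more than 0.0579% in any culture, is left out. The 3 control bars look alike and so do the 3 Folfiri bars, with the Gas5 segment going from a mean of 51.2% to 42.2% and the Snhg1 segment from 18.02% to 30.1%.

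Per kilobase of exon, the order of the levels in controls was Gas5 (44.9 CPM per kb), Snhg6 (33.4), Snhg8 (27.7), Snhg1 (20.03), Snhg5 (17.4) and Snhg12 (3.87). The ranges of Snhg6 and Snhg8 overlapped, as did those of Snhg1 and Snhg5. After Folfiri the order was Gas5 (70.0 CPM per kb), Snhg1 (63.3), Snhg5 (52.5), Snhg8 (38.2), Snhg6 (23.3) and Snhg12 (9.57). The range of Snhg1 then overlapped those of Gas5 and Snhg5. By this measure Snhg6 stood next to Gas5 in controls and above Snhg12 alone after Folfiri. These exonic lengths are the union over all annotated transcripts, including those whose exons run across introns of the spliced forms, so levels per kilobase depend on the annotation. The best supported transcripts were shorter by unequal amounts, at 709 of 2969 bases for Snhg1 and 473 of 1146 bases for Snhg6. The order of the hosts may therefore differ with spliced lengths.

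Genes next to the hosts were examined because several hosts share a start region or exons with a coding gene. Slc3a2, the heavy chain of amino acid transporters, starts 106 bases from Snhg1 on the other strand. It was at 270, 276 and 270 CPM in controls and 238, 253 and 271 CPM after Folfiri, and the groups overlapped. The log2 difference was -0.10 ± 0.07 (SE; adjusted p = 0.234, edgeR), beside 1.66 for Snhg1. Zbtb37, a zinc finger gene that overlaps the start of Gas5 on the other strand without sharing exons, went from 10.8 ± 1.15 to 9.58 ± 2.22 CPM (SD, n = 3 each; adjusted p = 0.346, edgeR). Both hosts therefore rose beside a divergent neighbor that did not pass the test.

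Rcc1, the nucleotide exchange factor of the Ran GTPase, overlaps Snhg3 on the same strand and shares 135 exonic bases with it. It was at 38.3, 29.6 and 25.8 CPM in controls and 125, 131 and 141 CPM after Folfiri, with a log2 difference of 2.08 ± 0.13 (SE; adjusted p = 1.52e-07, edgeR). Reads from Snhg3 in the shared exons cannot be told apart from reads of Rcc1. Mcmdc2, a gene of meiotic recombination, meets the 3′ end of Snhg6 on the other strand, where 127 exonic bases are shared. It had 1, 2 and 2 counts in controls and 78, 102 and 91 counts after Folfiri, while Snhg6 had at least 788 counts in every culture. The part of these shared bases in the value of Snhg6 was not tested.

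The snoRNAs themselves were nearly absent from the count table of these poly(A)-selected libraries. Of the 27 snoRNA loci inside the hosts, 1 had a row in the count table. That was Snord87, inside Snhg6, with 3, 2 and 4 counts in controls and 1, 4 and 4 counts after Folfiri. Snord87 shared 0 exonic bases with its host, whereas most of the other loci lay within annotated exons of theirs. How reads over shared exons were counted is not given, so a missing row does not show that a snoRNA was absent. The values above are those of the host genes and do not give levels of their snoRNAs. Annotated snoRNAs overlap 17.8% of the exonic bases of Gas5, 20.9% of those of Snhg1 and 19.6% of those of Snhg12, in annotated transcripts whose exons run across a snoRNA.

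Other noncoding hosts are set beside these hosts as a description. This list and those below were chosen with earlier results of these data known, so their counts are no independent check. Of 14 such genes 11 had a row in the table and 9 were tested, of which 8 rose, beside 40.3% of all tested genes, with a median log2 fold change of 1.62 beside 0.02 for all tested genes. Snhg9, whose own value was that median, was tested only through its Folfiri counts. Among hosts with at least 10 counts in every sample 7 rose, with a median of 1.81. Snhg15 went from 3.36 ± 0.782 to 26.8 ± 3.09 CPM (SD, n = 3 each), at 2.97 on the log2 scale (adjusted p = 6.00e-08, edgeR). Snhg20 went from 14.7 ± 3.09 to 85.8 ± 12.2 CPM, at 2.55, and Snhg16 from 5.27 ± 0.196 to 23.6 ± 1.93 CPM, at 2.16. Snhg16 shares 17.9% of its exonic bases with genes on the other strand. Zfas1, host of C/D snoRNAs and itself a TOP RNA, had a log2 fold change of 0.76 and Dancr, host of an H/ACA snoRNA, one of 1.37. Epb41l4aos did not pass the test, with a log2 fold change of 0.11 (adjusted p = 0.577, edgeR), although all 9 were called higher with the genomic span correction.

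Protein-coding hosts and ribosomal protein genes share the snoRNA cargo or the TOP start with the noncoding hosts, and most of them fell. Of 78 cytosolic ribosomal protein genes 74 fell (94.9%), beside 38.8% of all tested genes, with a median log2 fold change of -0.86. Of 42 protein-coding hosts 28 fell (66.7%) and 13 rose (31.0%), beside 38.8% and 40.3% of all tested genes. All 20 ribosomal protein genes among these hosts fell, with a median of -0.99. Rps20 went from 630 ± 77.7 to 145 ± 18.5 CPM (SD, n = 3 each), at -2.11 on the log2 scale (adjusted p = 8.36e-08, edgeR). Rpl13a was at -1.94. Ribosomal protein genes have many processed copies, and 35.4% of the exonic bases of Rpl13a are shared with other genes on its strand, so single values are uncertain. Of the other 22 protein-coding hosts, 13 rose (59.1%) and 8 fell (36.4%), the latter near the share over all tested genes, with a median of 0.35. Those that rose most were Ppan (2.83) and Nop56 (2.18), which act in ribosome assembly and snoRNA particles, and Dkc1 (2.65), the pseudouridine synthase of H/ACA particles.

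Most mRNAs for the proteins that package snoRNAs rose. Of 15 genes of snoRNP proteins and assembly factors 13 rose, 1 fell and Ruvbl2 did not pass the test (-0.06, adjusted p = 0.467, edgeR), beside 40.3% higher and 38.8% lower over all tested genes, with a median log2 fold change of 1.28. Fbl, the methyltransferase of C/D particles, went from 75.6 to 177 CPM, a log2 fold change of 1.23 (adjusted p = 4.79e-07, edgeR). Nop58, a core C/D protein, rose from 54.7 to 272 CPM, at 2.31. Pih1d1, a subunit of the R2TP assembly complex, fell, at -1.002.

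Genes of NMD factors were called about as often as all tested genes. Among 15 of them 6 rose and 5 fell, beside 40.3% higher and 38.8% lower over all tested genes, with a median log2 fold change of -0.07. Upf1, the central helicase of NMD, rose from 188 to 275 CPM, at 0.55 (adjusted p = 0.000210, edgeR). Smg5, an adaptor that recruits decay enzymes, had a log2 fold change of 1.18, and the release factor Etf1 one of 1.11. Smg6, the endonuclease, was at -1.08, Nbas at -1.30 and the helicase Dhx34 at -0.91. The kinase Smg1 did not pass the test, at -0.09 (adjusted p = 0.410, edgeR).

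All 6 genes of the exon junction complex rose, beside 40.3% of all tested genes, with Magoh at 1.12, Magohb at 1.11 and Casc3 at 1.03 among them. Of 9 decapping and 5′ to 3′ decay genes 5 rose (55.6%), a share nearer to those 40.3%, and 0 fell, beside 38.8% of all tested genes. Their median log2 fold change was 0.44, and 2 were called lower with the genomic span correction. Those that rose included the decapping scaffold Edc4 at 1.15, Dcp1a at 1.07 and Lsm1 at 0.60. The exonuclease Xrn1, which degrades RNA after decapping, did not pass, at -0.07 (adjusted p = 0.564, edgeR).

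Coding transcripts known to be sensitive to NMD went in both directions. Of 7 listed, 4 fell and 2 rose, beside 38.8% lower and 40.3% higher over all tested genes, with a median log2 fold change of -1.13. Gadd45a, a stress-response gene, went from 44.3 to 12.3 CPM, at -1.84, with 19.1% of its exonic bases shared with a gene on the other strand, the transcription factor gene Atf3 was at -1.75 and Tbl2 at -1.39. Map3k14, the kinase of noncanonical NF-kB signaling, was at 2.20 and Atf4, the main factor of the integrated stress response, at 0.26. Among 15 genes that control the translation of TOP RNAs 4 rose (26.7%) and 7 fell (46.7%), beside the same 40.3% and 38.8%, and the median was 0.00. These counts depended on the scaling, as 7 were called higher with total counts only. Ddit4, an inhibitor of mTORC1, went from 1150 to 58.6 CPM, at -4.30, Deptor was at -1.65 and Eif4ebp1 at -1.20. Larp1, which binds TOP starts, rose from 165 to 282 CPM, at 0.77 (adjusted p = 8.96e-05, edgeR), with Mlst8 at 0.75 and Akt1s1 at 0.72.

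**Figure D4:**
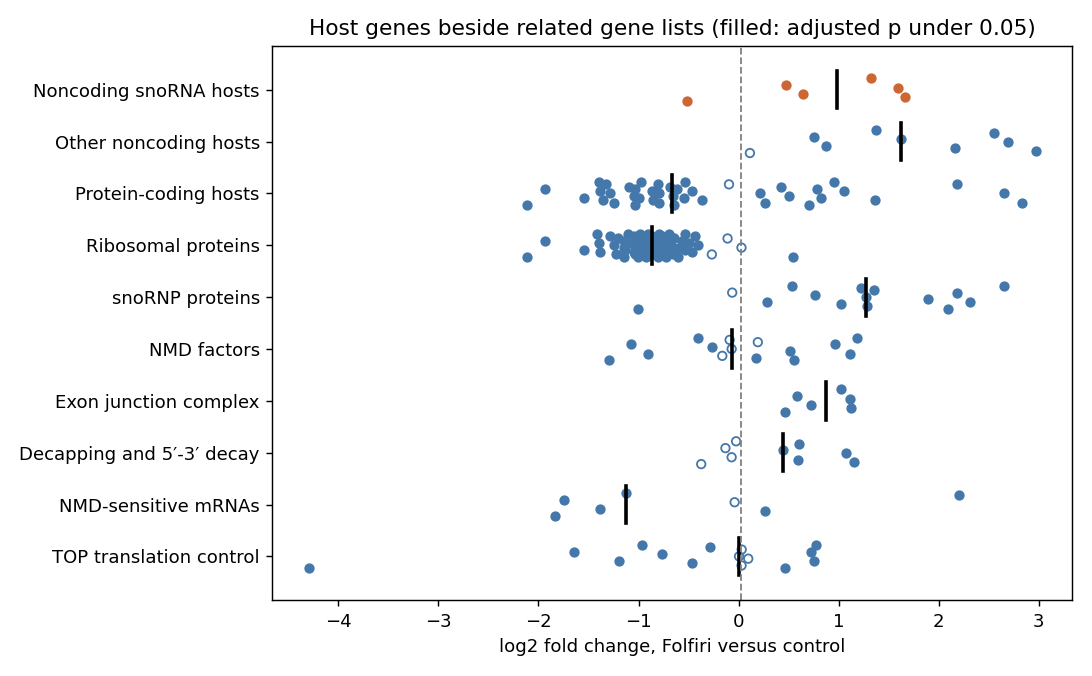
Log2 fold change of Folfiri over control for each tested gene of the host genes (orange) and of 9 related lists (blue), with filled points at an adjusted p under 0.05 (edgeR), black bars at each list's median and a dashed line at the median of all tested genes. Noncoding hosts and snoRNP proteins lie mostly to the right of the line, with medians of 0.98, 1.62 and 1.28, and ribosomal proteins to its left, with a median of -0.86.

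For each host, the coding genes with the most similar profile over the 6 samples were taken from 8888 tested genes whose mean reached 10 CPM. Likeness was the root mean square difference of log2 CPM centered on the control mean. The nearest gene was H2afj for Gas5 (0.0207 on the log2 scale), Rbm48 for both Snhg1 (0.101) and Snhg5 (0.0541), Dvl2 for Snhg6 (0.0103), Ubb for Snhg8 (0.0476) and Mettl17 for Snhg12 (0.0855).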

How the data were processed

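RNA was sequenced from 3 control and 3 Folfiri cultures of MTO54. The authors aligned reads with STAR 2.5.2 to GRCm38 with GENCODE annotation and deposited gene counts made with Rsubread, without normalization. Strand and overlap settings are not given in the sources used here.

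From these deposited counts, differences were tested in edgeR 4.0.16 (R 4.3.3) by quasi-likelihood, after its default expression filter and TMM scaling. P-values were adjusted by Benjamini-Hochberg over all tested genes, with a threshold of 0.05. SEs were derived from the F statistic. Totals were from 22103591 to 30098210 counts per sample. Of 24190 genes, 24168 matched GENCODE vM21 (GRCm38), the source of symbols, positions, exon lengths and overlaps. The authors counted on a later GENCODE release of this build, so the counted exons may differ from these. The procedure was tested on simulated data. Only a small part of the genes was changed there, whereas 79.1% were called here, so that test does not cover changes as broad as these.

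The hosts and lists were chosen with earlier results of these data known. Named genes were the hosts, their neighbors (overlapping, or coding with a start within 5 kb), up to 3 genes per direction and list with the largest called change, separate groups and at least 5 CPM, and Upf1, Smg1, Xrn1, Larp1, Fbl and Dkc1. Zfas1, Dancr, Epb41l4aos, Ruvbl2 and the markers of other cell types were added after their values were seen. DESeq2 1.42.0, other scalings and filters, a replicate block, left-out samples and a loess correction for genomic span were alternatives. Some genes that this rule names are not reported here.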

Additional observations from a re-analysis of the deposited data

How the results depend on the processing

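The 6 hosts kept their direction under every alternative run, and their calls in 83 of 84 refits. The exception was Snhg6 with total counts only (-0.23, adjusted p = 0.0681, edgeR). That setting left 0 of the hosts called lower, with 0 at an unadjusted p under 0.05, whereas DESeq2 called 1. Total counts only also moved the median log2 fold change of all genes to 0.30, of protein-coding hosts to -0.39, ribosomal proteins to -0.58, snoRNP proteins to 1.54, NMD factors to 0.20 (3 called lower), the exon junction complex to 1.15, decapping genes to 0.72, NMD-sensitive transcripts to -0.85 and TOP control genes to 0.28 (7 called higher), as a scaling that shifts all genes must. With the genomic span correction the medians were -0.0626 for all genes, 2.07 for other noncoding hosts, 0.58 for the exon junction complex, 0.23 for decapping genes (2 called lower) and -0.17 for TOP control genes, and 2 snoRNP genes were called lower. The cause was not tested. The median of all genes was 0.0761 with upper quartile scaling, 0.27 without a filter, 0.0040 with at least 10 counts in every sample and 0.10 with DESeq2. Counted per kilobase, the change in share was -3.25 percentage points for Gas5, 11.02 for Snhg1, 8.59 for Snhg5, -13.5 for Snhg6, -3.97 for Snhg8 and 1.11 for Snhg12.

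Across the fits without 1 culture, the median of all genes was from 0.0171 to 0.0440, that of NMD factors from -0.0798 to 0.0103, and the decapping genes called lower from 0 to 1 (0 with all samples, also at an unadjusted p under 0.05 and with DESeq2). Same-numbered samples did not deviate together (r = 0.0267, -0.117 and 0.0393 across genes), and samples of unlike numbers had values from -0.118 to 0.12. These values show no sign of pairing by number. With 3 samples per group they cannot settle it, and the labels do not say. With the replicate block, 5878 genes were higher and 5621 lower, in place of 5926 and 5697, and 5 hosts were higher and 1 lower as without it. Snhg3 was too low to test at this depth, and the part of its shared exons was not tested.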

Other observations

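Among the other noncoding hosts, Snhg10 and Snhg14 were of low abundance and also rose. Snhg10 had 16, 25 and 18 counts in controls and 113, 163 and 226 after Folfiri, with a log2 difference of 2.69 ± 0.28 (SE; adjusted p = 6.90e-06, edgeR). Snhg14, the long host of imprinted snoRNA clusters in neurons, had 46, 35 and 43 counts in controls and 99 in each Folfiri culture, at 0.87 (adjusted p = 0.00138, edgeR). Snhg9 had 5, 4 and 4 counts in controls and 13, 14 and 26 after Folfiri, and passed the expression filter only through the treated cultures. Snhg11 and Snhg18 had at most 2 counts in any culture and were not tested. These genes were named after their values were seen.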
